A study of Homo sapiens with 29 samples.

Results

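The collagens and matrix proteins described here are 47 genes: 26 collagen chains, 9 laminin, nidogen and perlecan genes, 3 small leucine-rich proteoglycans, 3 elastic fibre genes and 6 adhesive and matricellular proteins. They were chosen as a family and not by their measured values. All 47 had at least 1 probe that the RefSeq accession in the array files named, out of 22439 genes named that way, and each gene was read from the probe with the highest mean in the authors' matrix. Of the 47, 45 were well above background on at least 2 arrays and were tested among 18373 genes. The remaining genes, COL11A1 and COL22A1, were not well above background on any of the 29 arrays.

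The arrays measured RNA of LHCN-M2 cells, human myoblasts (muscle precursor cells) that telomerase and CDK4 made immortal. The cells received 20 nM of an siRNA against ZNF148 (siZNF148) or of a nontargeting siRNA (siControl), so that every group had been transfected. In growth media they were collected at 24 h, while subconfluent, and at 48 and 96 h, when confluent. In differentiation media, which are depleted of growth factors, confluent cells were collected at 48 and 96 h. Each of the 10 groups had 3 arrays, apart from the nontargeting group at 96 h in growth media, which had 2. All arrays came from 1 cell line. The labels call the arrays of a group biological replicates, and p-values measure the spread between these arrays. The hours in differentiation media were read as counted from the change of media. The time since transfection is not stated unambiguously for these arrays, and it may differ between media at the same hour.

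Collagens are built from triple helices of chains that are encoded by separate genes, and they fall into fibril-forming types, network-forming types of the basement membrane, beaded-filament collagen VI, types that bind along the surface of fibrils, and types anchored in the cell membrane. Each muscle fibre lies in a basement membrane of laminin, collagen IV, nidogen and perlecan, and between fibres lies a connective matrix of fibrillar collagens, proteoglycans, fibronectin and elastic fibres. Myoblasts in culture make many of these proteins, and both the matrix and its receptors change as cells exit the cell cycle and fuse. ZNF148, also called ZBP-89, is a zinc finger transcription factor that binds G- and C-rich DNA, and its mouse counterpart has been described as a factor that binds the promoters of both type I collagen genes.

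Because ZNF148 binds G- and C-rich DNA, the DNA before the transcription start is shown for members at the ends of the range of changes (COL15A1 rose and THBS2 fell in all 5 comparisons of the siRNAs) and for collagen IV genes, which lie in head-to-head pairs. RefSeq windows (build GRCh38.p14) matched 36 of the 47 members by symbol, with 41 windows in all. The type I collagen genes COL1A1 and COL1A2 were among the members without a window, so their promoters were not read. Capitals mark a GC box, GGGCGG or CCGCCC on the other strand, or a C-rich run, CCCTCCCC or GGGGAGGG on the other strand. No match of one overlapped a match of the other in the sequences below. COL4A1 (minus strand) and COL4A2 (plus strand) start 126 bases apart on chromosome 13, and the stretch between both starts, chr13:110307158-110307283, plus strand, holds 1 of each motif:
COL4A1 and COL4A2: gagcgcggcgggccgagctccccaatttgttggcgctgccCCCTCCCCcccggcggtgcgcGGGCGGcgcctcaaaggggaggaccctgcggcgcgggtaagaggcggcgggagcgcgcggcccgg
COL4A5 pairs with COL4A6 in the same way, with 379 or 1415 bases between the starts, depending on which start of COL4A6 is used. The 250 bases before COL4A5, chrX:108439588-108439837, plus strand, hold 1 C-rich run and no GC box:
COL4A5: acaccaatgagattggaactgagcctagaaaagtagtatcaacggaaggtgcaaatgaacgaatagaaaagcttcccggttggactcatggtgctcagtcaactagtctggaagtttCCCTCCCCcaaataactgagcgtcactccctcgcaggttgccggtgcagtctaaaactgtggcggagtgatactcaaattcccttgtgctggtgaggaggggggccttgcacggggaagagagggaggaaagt
The 250 bases before COL15A1, chr9:98943657-98943906, plus strand, hold 1 GC box and no C-rich run:
COL15A1: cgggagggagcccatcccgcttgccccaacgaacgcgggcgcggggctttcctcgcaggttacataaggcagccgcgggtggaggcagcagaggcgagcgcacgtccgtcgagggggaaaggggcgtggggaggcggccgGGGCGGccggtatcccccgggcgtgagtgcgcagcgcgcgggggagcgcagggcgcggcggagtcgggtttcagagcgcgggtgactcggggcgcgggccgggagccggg
The 250 bases before THBS2, chr6:169253847-169254096, minus strand, hold neither motif:
THBS2: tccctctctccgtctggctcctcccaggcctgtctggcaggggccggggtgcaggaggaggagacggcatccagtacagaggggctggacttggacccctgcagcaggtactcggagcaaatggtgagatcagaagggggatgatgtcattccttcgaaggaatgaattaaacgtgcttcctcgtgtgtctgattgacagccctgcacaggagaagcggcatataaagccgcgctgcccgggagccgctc
The GC content was 80.2% in the shared collagen IV stretch, 76.8% before COL15A1, 60% before THBS2 and 51.2% before COL4A5. Among the RefSeq windows of all genes, 42.6% of 35116 windows of 250 bases held the GC box and 12.7% the C-rich run, and 34.6% and 8.27% did so in the 126 bases nearest the start. Of the 36 members with a window, 26 had a window with the GC box and 15 one with the C-rich run. These are counts of genes with a match in any of their windows, and the shares above are of windows, so they are unlike measures. The windows of COL4A1 and COL4A2 both include the stretch between their starts, so its matches count for both genes. These matches describe the letters of the windows only. The printed sequences were picked by change or position and do not stand for all members that rose or fell. COL21A1, which also rose in all 5 comparisons, is not shown, and its windows held 1 GC box or neither motif.

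Values are log2 signals (quantile-normalized, background-subtracted intensity), and a change is the mean with ZNF148 siRNA minus the mean with nontargeting siRNA on that scale. A gene was called changed where limma's adjusted p was under 0.05 and the change exceeded 2-fold (1 on the log2 scale). The number of arrays limits the precision. The ZNF148 signal itself fell by 1.53 to 2.74 on the log2 scale in the 5 comparisons. The share of probes well above background was 41.6% to 56.5% per array, and no probe was saturated. The myoblast markers MYOD1, MYF5, DES, CDH15 and NCAM1 were well above background on all 29 arrays and PAX7 on 20. The summed signal of 8 markers of differentiated muscle lay between 14.24 and 14.30 with nontargeting siRNA and between 14.22 and 14.33 with ZNF148 siRNA at 24 h. At 96 h these ranges were 15.86 to 15.90 against 20.23 to 20.27 in growth media, and 18.82 to 18.99 against 20.56 to 20.58 in differentiation media. The sum of 7 fibroblast markers was lower with ZNF148 siRNA, at 12.83 to 13.22 against 15.39 to 15.44 in growth media at 96 h and at 11.67 to 11.70 against 14.51 to 14.73 at 96 h in differentiation media, with PI16 well above background on none and TCF21 on 3 of the arrays. The sum of 4 smooth muscle markers was higher in both, at 15.47 to 15.60 against 13.55 to 13.57 and at 15.90 to 16.01 against 15.15 to 15.31. The sum of 3 immune markers, of which CD14 was well above background on all 29 arrays and CD3E on 11, was lower, at 7.91 to 8.18 against 11.73 to 11.82 in growth media and 7.36 to 7.58 against 7.75 to 7.80 in differentiation media at 96 h. For 5 endothelial markers these ranges were 8.05 to 8.18 against 9.28 to 9.33 and 7.58 to 7.94 against 8.08 to 8.26. The sum of 6 myoblast markers was higher with ZNF148 siRNA, at 17.28 to 17.39 against 16.48 to 16.54 at 24 h. At 96 h it was 19.14 to 19.20 against 17.64 to 17.71 in growth media. In differentiation media it was 19.15 to 19.19 against 18.51 to 18.61. All these sums follow their brightest markers. At 96 h in differentiation media 1 of the 3 immune markers was called lower, and 2 had positive changes. Of the 5 endothelial markers 2 were called lower in both media at 96 h, and 1 higher in differentiation media. Of the 6 myoblast markers 3 were called higher and 1 lower in growth media at 96 h, and 2 higher and none lower in differentiation media. The part of these markers in the matrix changes below was not tested, and in bulk RNA fewer cells of a type and less RNA per cell cannot be told apart. Nontargeting replicate 1 at 48 h in growth media stood apart from replicates 2 and 3, with a differentiated-muscle sum of 19.21 against 15.11 and 14.86. The called changes of members at 48 h in growth media are therefore also given from a fit of the other 28 arrays, in which none of the called changes of members in the 5 comparisons was lost. The 24 h arrays shared 1 slide and were scanned on another day than the rest, so 24 h and the later times cannot be told apart from slide and scan.

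More matrix genes rose than fell in growth media, and in differentiation media the counts past 2-fold were close while more fell than rose at 96 h by adjusted p alone. At 24 h, 7 of 45 members rose with ZNF148 siRNA and 1 fell (15.6% and 2.22%), where 2.47% of all tested genes rose and 3.08% fell. At 48 h 18 rose and 5 fell in growth media (40% and 11.1%, against 11.7% and 12.2% of all genes), and without nontargeting replicate 1 the counts were 19 and 6. The counts at 96 h in growth media were again 18 and 5, against 12.3% and 12.5% of all genes. In differentiation media 15 rose and 16 fell at 48 h (33.3% and 35.6%, against 15.1% and 17.3% of all genes), and at 96 h 9 rose and 10 fell (20% and 22.2%, against 10.5% and 12.8%). By limma's adjusted p alone, with no fold threshold, 15 members rose and 6 fell at 24 h (15.7% and 16.8% of all genes), 28 and 14 at 48 h (26.9% and 31.1%) and 27 and 10 at 96 h (26% and 30.4%) in growth media. In differentiation media 19 rose and 20 fell at 48 h (30.2% and 34.7% of all genes) and 13 rose and 22 fell at 96 h (25.2% and 34%). The median change of the 45 members was 0.14, 0.79 and 0.50 at 24, 48 and 96 h in growth media and 0.01 and -0.29 at 48 and 96 h in differentiation media, while the median of all genes stayed between -0.06 and 0. The arrays of the 2 siRNAs did not overlap for 35, 43 and 42 of the 45 members at 24, 48 and 96 h in growth media and for 40 and 39 at 48 and 96 h in differentiation media, where the same held for 55.6%, 62.9%, 75.2%, 70.3% and 65.7% of all genes. Beside these counts, the differentiated-muscle sum was higher with ZNF148 siRNA in each comparison but that at 24 h.

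**Figure D1:**
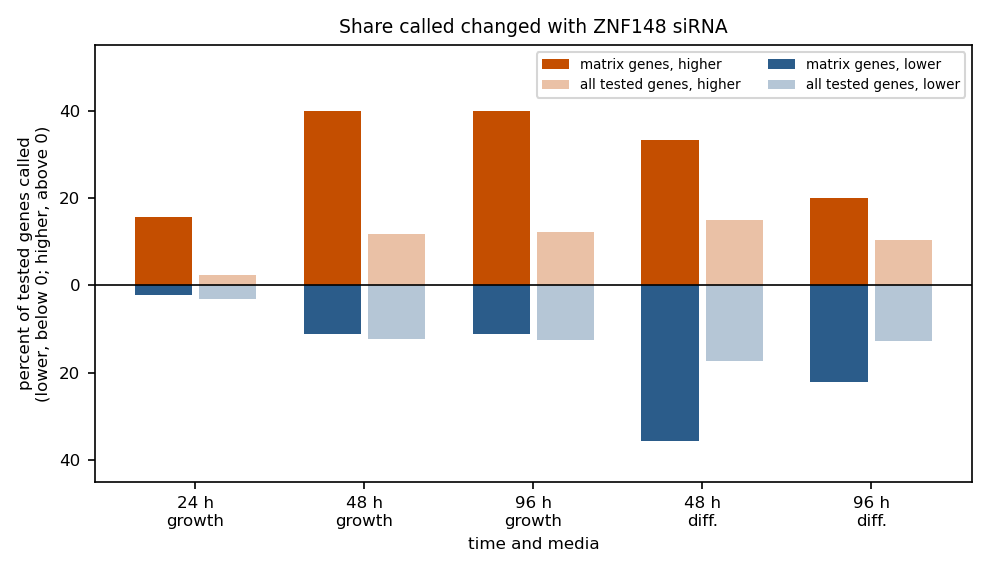
Percent of the 45 tested matrix genes and of all 18373 tested genes called higher or lower with ZNF148 siRNA in each of the 5 comparisons. In growth media at 48 and 96 h the matrix genes reach 40% higher, against 11.7% and 12.3% of all genes, and in differentiation media their share of lower calls reaches 35.6% at 48 h.

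Over the 5 comparisons, 27 members rose at least once and 19 fell at least once. COL3A1, COL7A1, COL18A1, COL14A1 and TNC were in both counts. COL15A1 and COL21A1 rose, and THBS2 fell, in all 5. COL5A2, LAMA2, LAMB2 and LAMC1 were called in none. There were 104 called changes in all, and in 103 of them the direction was the same on every slide that held arrays of both groups. For the 8 changes at 24 h this was given in advance, since all arrays of that time shared 1 slide. For the 23 at 96 h in growth media only 1 slide held both groups. Slides with both groups numbered 3 at 48 h in each of the media and 2 at 96 h in differentiation media. With normexp background correction and an offset of 50, 21 of the 104 came under 2-fold in the same direction: those of COL15A1, COL21A1 and THBS2 at 24 h, COL7A1 at 24 and 96 h in growth and 48 h in differentiation media, COL21A1 at 48 and 96 h in growth and 96 h in differentiation media, BGN at 48 and 96 h in growth and 48 h in differentiation media, COL6A3 at 96 h in growth and in both differentiation comparisons, COL15A1, COL8A2 and LAMA4 at 48 h and FBN1 at 96 h in differentiation media, and FN1 at 48 h and COL4A6 at 96 h in growth media.

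**Figure D2:**
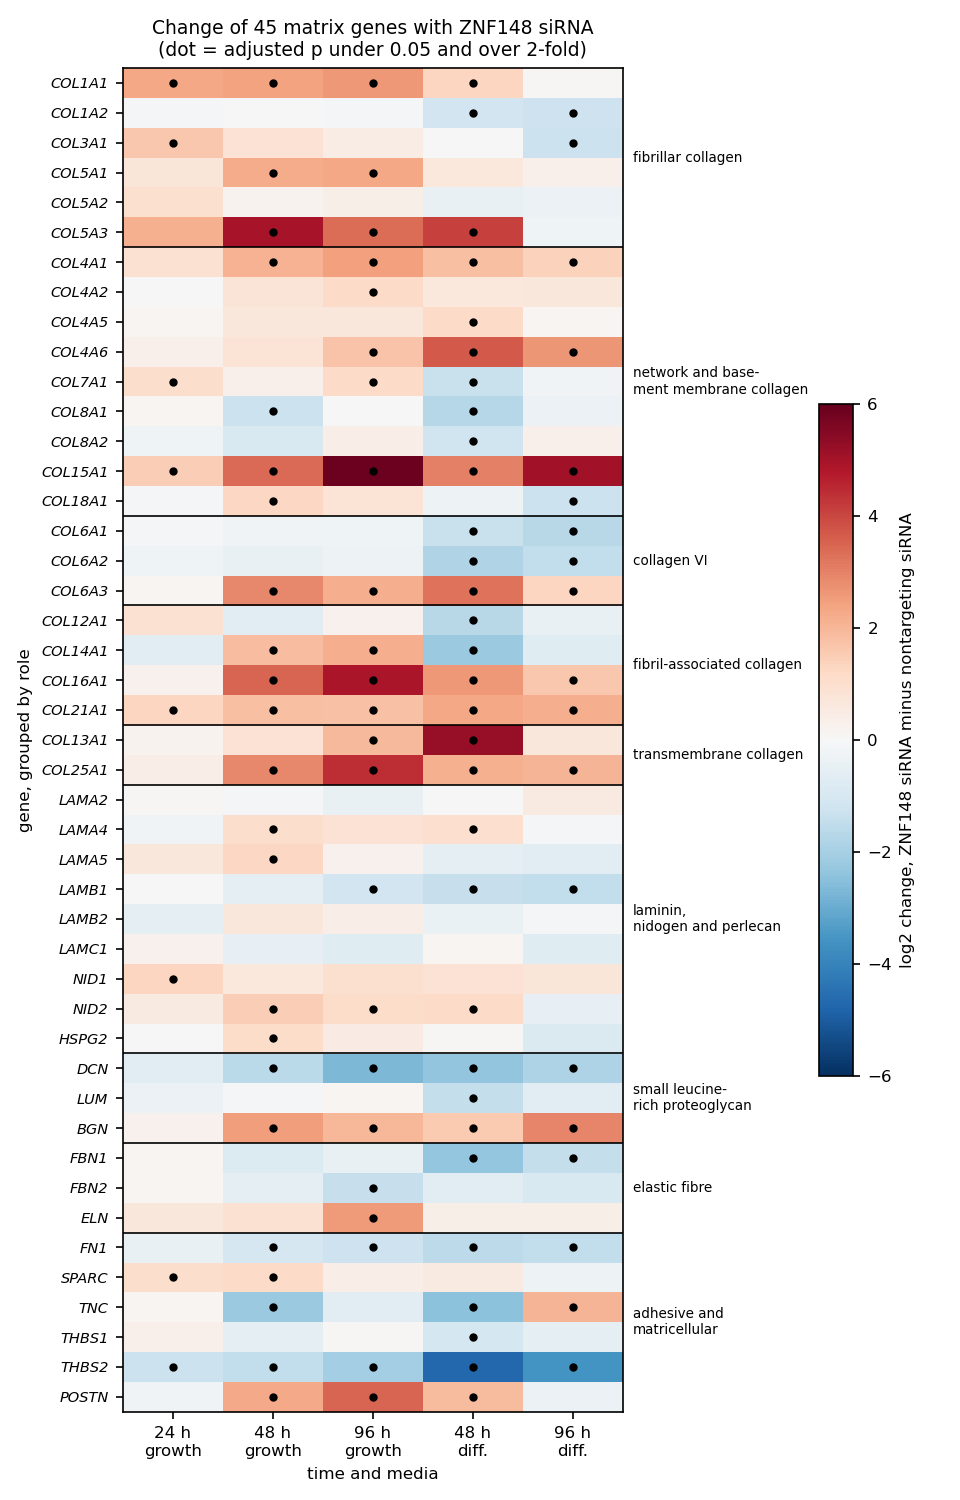
Log2 change with ZNF148 siRNA of the 45 tested genes (one line each, grouped by role) in the 5 comparisons (columns), in colour from -6 to 6, with a dot where the change was called. COL15A1, COL16A1 and COL25A1 are among the strongest rises in growth media. THBS2 and DCN are lower throughout the later times, and at these times the collagen VI chains split into COL6A1 and COL6A2 against COL6A3.

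Of the fibril-forming collagens, 2, 3 and 3 of the 6 tested chains rose at 24, 48 and 96 h in growth media and none fell. In differentiation media 2 rose and 1 fell at 48 h, and none rose and 2 fell at 96 h. Of all genes, 2.47%, 11.7% and 12.3% rose and 3.08%, 12.2% and 12.5% fell in growth media at these hours. In differentiation media 15.1% and 10.5% rose and 17.3% and 12.8% fell at 48 and 96 h. These shares also stand beside the counts by role below, which rest on few genes each. COL1A1 encodes the alpha-1 chain of type I collagen, the main fibrillar collagen of connective tissue. At 24 h its signal was 13.01, 13.08 and 13.08 with nontargeting siRNA and 15.40, 15.37 and 15.30 with ZNF148 siRNA. After 48 h in growth media it was 15.30, 13.43 and 13.31 against 16.45, 16.31 and 16.54, and at 96 h it was 14.19 and 14.18 against 16.78, 16.82 and 16.82. The siRNA groups did not overlap at any of these times, although the first nontargeting array at 48 h lay closer to the ZNF148 arrays than to its own replicates. The change was 2.30 (95% confidence interval 1.67 to 2.94, adjusted p = 6.97e-06) at 24 h, 2.42 (1.79 to 3.06, adjusted p = 8.3e-07) at 48 h, where it was 3.07 without that array, and 2.62 (1.91 to 3.33, adjusted p = 1.45e-06) at 96 h. In differentiation media the arrays at 48 h read 14.21, 13.90 and 13.52 against 15.23, 15.12 and 15.22, a rise of 1.31 (0.68 to 1.95, adjusted p = 0.000842). At 96 h they read 15.75, 15.87 and 15.95 against 15.88, 15.92 and 15.92, so that the groups overlapped, with a difference of 0.05 (-0.58 to 0.69, adjusted p = 0.926).

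COL1A2 encodes the alpha-2 chain, which joins the product of COL1A1 in the type I trimer. Its signal in growth media stayed between 15.54 and 15.76 on the 6 arrays at 24 h, with a difference of -0.10 (-0.23 to 0.04), and the differences at 48 and 96 h were -0.03 (-0.17 to 0.10) and -0.13 (-0.29 to 0.02). In differentiation media at 48 h it read 17.20, 17.09 and 16.99 with nontargeting siRNA and 16.03, 15.90 and 15.92 with ZNF148 siRNA, and at 96 h 17.11, 17.19 and 17.21 against 15.98, 15.84 and 16.04. Every ZNF148 array in differentiation media was below every nontargeting array. The fall was -1.14 (-1.28 to -1.01, adjusted p = 1.84e-12) at 48 h and -1.22 (-1.35 to -1.08, adjusted p = 1.71e-12) at 96 h. With each array scaled on its 75th percentile in place of quantile normalization, the value at 96 h was -0.96, short of 2-fold.

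COL3A1, whose type III collagen forms fibrils together with type I, rose at 24 h and fell at 96 h in differentiation media. It read 10.02, 9.94 and 9.97 against 11.53, 11.61 and 11.62 at 24 h, a change of 1.61 (1.36 to 1.85, adjusted p = 2.06e-09). The differences at 48 and 96 h in growth media, 0.86 (0.61 to 1.10) and 0.43 (0.16 to 0.70), and at 48 h in differentiation media, 0.01 (-0.23 to 0.26), were under 2-fold. By 96 h in differentiation media it read 13.13, 13.02 and 13.00 against 11.78, 11.71 and 11.82, and the change was -1.28 (-1.53 to -1.04, adjusted p = 7.61e-09). Of the chains of collagen V, which sets the start of collagen fibrils, COL5A1 rose by 2.23 at 48 h (2.68 without nontargeting replicate 1) and by 2.30 at 96 h in growth media, and COL5A2 was called in no comparison, its differences lying between -0.43 and 0.97.

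COL5A3, the third chain of collagen V, had the largest rise of the fibrillar group. At 24 h it was well above background on 1 of the 6 arrays. In growth media it read 9.34, 4.34 and 4.37 against 10.80, 10.88 and 11.26 at 48 h and 7.69 and 7.74 against 10.95, 10.97 and 11.25 at 96 h. Replicate 1 at 48 h was by far the highest of the 3 nontargeting arrays and still below every ZNF148 array. The change was 4.96 (3.29 to 6.64, adjusted p = 2.2e-05) at 48 h, or 6.63 without that replicate, when 1 of the other 2 nontargeting arrays was well above background, and 3.34 (1.47 to 5.22, adjusted p = 0.00408) at 96 h. COL5A3 rose in differentiation media by 4.12 (2.44 to 5.8, adjusted p = 0.000145) at 48 h, from 6.99, 6.51 and 5.65 to 10.66, 10.41 and 10.44. At 96 h the arrays overlapped, at 10.76, 10.61 and 10.92 against 10.42, 10.51 and 10.61, with a difference of -0.24 (-1.92 to 1.43).

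**Figure D3:**
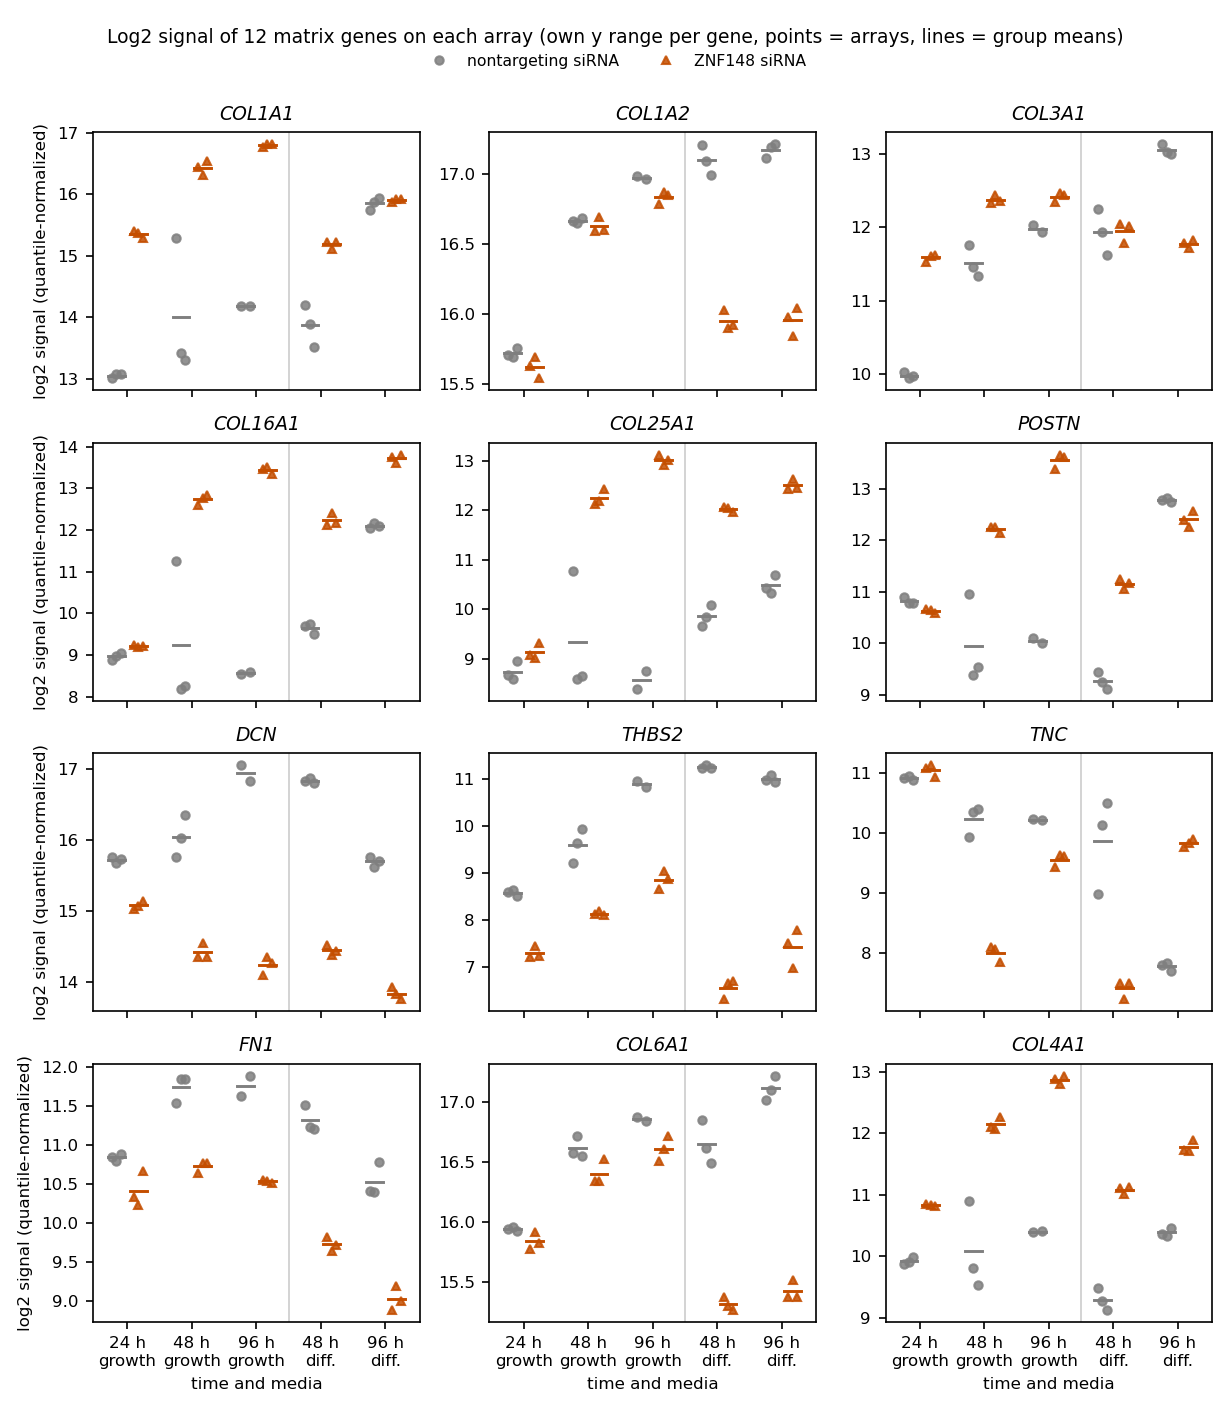
Log2 signal of 12 matrix genes on every array (points) with group means (lines), for both siRNAs, by hour and media. Each panel has its own range, so levels cannot be set against each other between genes. COL1A1, COL16A1, COL25A1 and POSTN show nontargeting replicate 1 at 48 h in growth media above its replicates, and COL1A2 and COL6A1 separate by siRNA in differentiation media.

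The network and basement membrane collagens rose more often than they fell in growth media, with 2, 3 and 5 of 9 chains higher and 0, 1 and 0 lower at 24, 48 and 96 h. In differentiation media 4 rose and 3 fell at 48 h, and 3 rose and 1 fell at 96 h. Collagen IV is the sheet-forming collagen of every basement membrane, and COL4A1 and COL4A2 encode the chains of its most widespread trimer. COL4A1 read 9.88, 9.91 and 9.99 against 10.86, 10.84 and 10.82 at 24 h, a difference of 0.92 (0.50 to 1.33) that was under 2-fold. Later in growth media it read 10.90, 9.81 and 9.54 against 12.11, 12.08 and 12.27 at 48 h, and 10.39 and 10.42 against 12.88, 12.80 and 12.94 at 96 h. In differentiation media it read 10.37, 10.34 and 10.47 against 11.73, 11.71 and 11.90 at 96 h. All ZNF148 arrays were above all nontargeting arrays of the same time and media. Its change was 2.07 (1.65 to 2.48, adjusted p = 2.27e-08) at 48 h in growth media, 2.47 without nontargeting replicate 1, and 2.47 (2.00 to 2.94, adjusted p = 8.92e-09) at 96 h. In differentiation media the change was 1.79 (1.38 to 2.21, adjusted p = 8.96e-08) at 48 h and 1.38 (0.97 to 1.80, adjusted p = 5.2e-06) at 96 h.

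COL4A2, on the other side of the short stretch between the starts shown above, had differences of -0.02 (-0.17 to 0.14) at 24 h and 0.79 (0.63 to 0.95) at 48 h in growth media, and 0.64 and 0.70 at 48 and 96 h in differentiation media. It passed 2-fold at 96 h in growth media, with 14.27 and 14.25 against 15.35, 15.44 and 15.44, a rise of 1.15 (0.97 to 1.33, adjusted p = 3.98e-10). Of the X-linked pair, COL4A6 rose by 1.70 at 96 h in growth media, with 5.42 and 5.34 against 6.96, 7.12 and 7.17. At 48 h in differentiation media COL4A6 was not well above background on any nontargeting array and read 7.27, 7.49 and 7.46 with ZNF148 siRNA, at least 10-fold higher. Such a bound sets the bright group's mean against the mean, over the dim group's arrays, of the gene's own value or that array's lowest signal among probes well above background, whichever was higher. COL4A5 rose at that time and media by 1.16 (0.97 to 1.36, adjusted p = 5.2e-10) and had differences of 0.11 to 0.70 elsewhere.

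**Figure D4:**
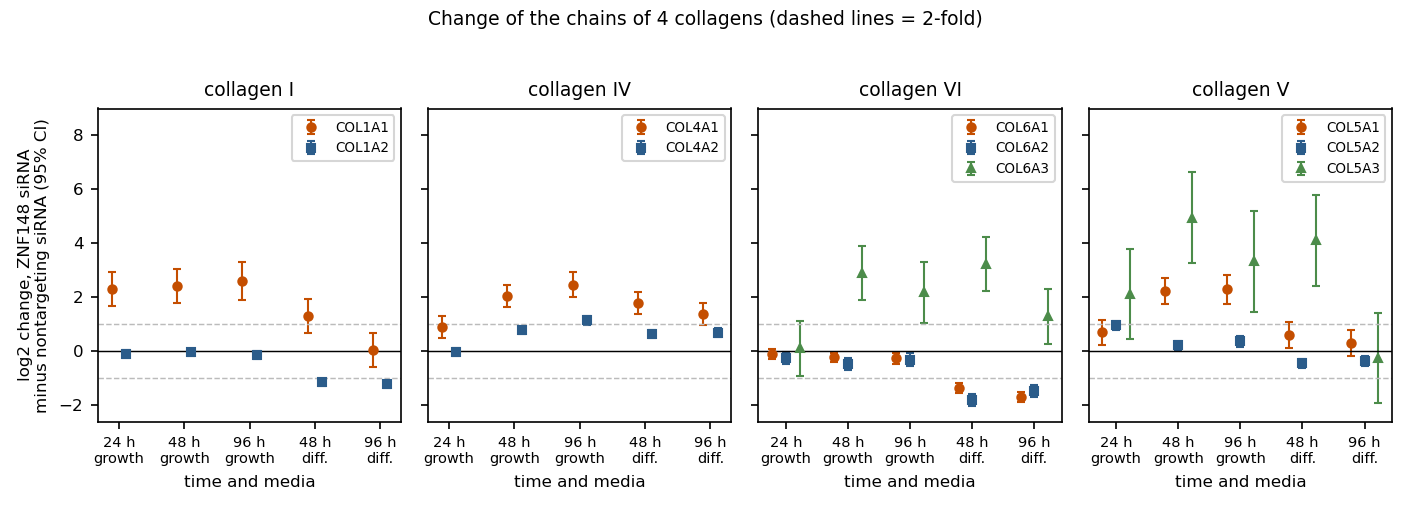
Log2 change with ZNF148 siRNA of the chains of collagens I, IV, VI and V in the 5 comparisons, with 95% confidence intervals as bars and dashed lines at 2-fold. In growth media COL1A1 lies at 2.30 to 2.62 and COL1A2 between -0.13 and -0.03, and among the collagen VI chains COL6A3 lies above 0 where COL6A1 and COL6A2 lie below it.

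COL15A1, a collagen of the outer basement membrane of muscle and vessels, rose in all 5 comparisons from low nontargeting signals. At 24 h it read 5.69, 5.63 and 5.15 against 6.89, 6.98 and 7.02, a rise of 1.47 (0.53 to 2.41, adjusted p = 0.0198). That call was lost without nontargeting replicate 3 (1.31, adjusted p = 0.0821) or without ZNF148 replicate 2 (1.47, adjusted p = 0.0513) or 3 (1.45, adjusted p = 0.0512). After 48 h in growth media it read 4.98, 2.13 and 2.57 against 6.57, 6.65 and 6.6, with 1 of the 3 nontargeting arrays well above background, and rose by 3.38 (2.44 to 4.32, adjusted p = 1.88e-06). Without that array no control was well above background, and the rise of COL15A1 is then a bound of the same kind, at least 4.7-fold. From then on no nontargeting array was well above background and all ZNF148 arrays were. COL15A1 was at least 18.7-fold higher at 96 h in growth media (8.22, 8.39 and 8.41 with ZNF148 siRNA), at least 2.19-fold higher at 48 h in differentiation media (5.13, 5.27 and 4.88) and at least 12.5-fold higher at 96 h in differentiation media (7.91, 7.52 and 7.85).

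COL18A1, whose C-terminal fragment is endostatin, moved in opposite directions. It rose by 1.22 (0.92 to 1.52, adjusted p = 3.3e-07) at 48 h in growth media (1.46 without nontargeting replicate 1), where it read 14.97, 14.19 and 14.31 against 15.72, 15.84 and 15.57. It changed by -1.27 at 96 h in differentiation media (interval -1.57 to -0.98, adjusted p = 1.62e-07), with 16.24, 16.49 and 16.31 against 15.13, 15.01 and 15.09. COL7A1, the anchoring fibril collagen, rose by 1.05 at 24 h and by 1.14 at 96 h in growth media and changed by -1.32 at 48 h in differentiation media. Its call at 24 h was lost without nontargeting replicate 1, at 0.98. COL8A1, a short-chain network collagen, read 12.70, 13.18 and 13.09 against 11.71, 11.72 and 11.72 at 48 h in growth media, a change of -1.27 (-1.49 to -1.06, adjusted p = 1.79e-09) that was -1.42 without nontargeting replicate 1, and its change was -1.69 at 48 h in differentiation media. At 96 h its differences were 0.03 in growth and -0.35 in differentiation media. COL8A2, its partner chain, changed by -1.19 at 48 h in differentiation media, where 1 of 3 ZNF148 arrays was well above background, and without ZNF148 replicate 3 the value was -0.99, short of 2-fold.

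The 3 chains of collagen VI, the beaded-filament collagen that links cells to the surrounding matrix in muscle, did not move together. COL6A1 had differences of -0.10, -0.22 and -0.25 in growth media. In differentiation media it read 16.85, 16.62 and 16.49 against 15.38, 15.30 and 15.27 at 48 h and 17.02, 17.10 and 17.22 against 15.38, 15.52 and 15.38 at 96 h. Its changes there were -1.34 (-1.52 to -1.16, adjusted p = 1.31e-11) and -1.68 (-1.86 to -1.51, adjusted p = 8.8e-13), with no overlap. COL6A2 followed with -0.25, -0.46 and -0.30 in growth media and with falls of -1.81 and -1.46 at 48 and 96 h in differentiation media. COL6A3 was dim, well above background on 15 of the 29 arrays. It read 5.08, 3.00 and 3.74 against 7.0, 6.68 and 6.83 at 48 h and 4.33 and 4.80 against 6.56, 6.89 and 6.79 at 96 h in growth media. These were rises of 2.90 and 2.19, and without nontargeting replicate 1 at 48 h, when no control was well above background, the rise was at least 5.53-fold. At 48 h in differentiation media COL6A3 was at least 3.75-fold higher, with no nontargeting array well above background. At 96 h it read 4.17, 4.56 and 4.21 against 5.52, 5.84 and 5.48, a rise of 1.30 (0.29 to 2.31, adjusted p = 0.0316). That last call was lost without nontargeting replicate 1 or 3 or any 1 of the ZNF148 replicates, at 1.19 to 1.37.

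Among the 4 tested fibril-associated collagens, which bind along fibrils without forming them, 1, 3 and 3 rose in growth media at 24, 48 and 96 h, 2 rose and 2 fell at 48 h in differentiation media, and 2 rose at 96 h. COL16A1 read 8.89, 8.99 and 9.06 against 9.24, 9.19 and 9.22 at 24 h, a difference of 0.24 (-0.71 to 1.18). The later arrays in growth media read 11.26, 8.19 and 8.27 against 12.61, 12.77 and 12.83 at 48 h, and 8.55 and 8.59 against 13.47, 13.52 and 13.35 at 96 h. The ZNF148 arrays stayed above the nontargeting ones, with the first nontargeting array at 48 h again the highest of its group. The rise was 3.49 (2.55 to 4.44, adjusted p = 1.34e-06) at 48 h, 4.50 without that array, and 4.88 (3.82 to 5.94, adjusted p = 7.02e-08) at 96 h, which is 29.4-fold. In differentiation media it read 9.71, 9.75 and 9.50 against 12.13, 12.40 and 12.18 at 48 h (2.59, adjusted p = 4.33e-05) and 12.06, 12.16 and 12.10 against 13.75, 13.62 and 13.81 at 96 h (1.62, adjusted p = 0.00515). A second, dimmer COL16A1 probe did not follow, with -1.14 and -0.79 at 48 and 96 h in growth media and -0.21 and 0.43 at 48 and 96 h in differentiation media, so the direction for COL16A1 rests on the brighter probe.

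COL14A1, a collagen of dense connective tissue that binds fibrils, rose in growth media and fell in differentiation media at 48 h. In growth media it read 6.84, 5.64 and 5.49 against 7.75, 7.88 and 7.90 at 48 h, a rise of 1.85 (1.42 to 2.28, adjusted p = 1.76e-07) that was 2.27 without nontargeting replicate 1, and it rose by 2.18 at 96 h. In differentiation media at 48 h it read 9.87, 10.01 and 10.16 against 7.87, 7.69 and 7.86, a change of -2.21 (-2.64 to -1.77, adjusted p = 6.45e-09). With ZNF148 siRNA the arrays of both media thus lay within 7.69 to 7.90 at 48 h, and the nontargeting arrays of the 2 media did not overlap. The second COL14A1 probe gave 1.17 at 48 h and 1.71 at 96 h in growth media and -1.92 at 48 h in differentiation media.

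COL12A1, a fibril-associated collagen of tendon and muscle, read 10.89, 10.90 and 10.93 against 11.89, 11.96 and 11.60 at 24 h, a difference of 0.91 (0.67 to 1.14) that reached 1.02 without ZNF148 replicate 3. It read 10.97, 11.02 and 10.84 against 9.29, 9.06 and 9.44 at 48 h in differentiation media, a fall of -1.68 (-1.91 to -1.44, adjusted p = 3.12e-11). Its other differences were -0.61 and 0.24 in growth media (48 and 96 h) and -0.46 at 96 h in differentiation media. COL21A1 rose in all 5 comparisons, by 1.30 at 24 h, 1.80 (2.16 without nontargeting replicate 1) and 1.76 at 48 and 96 h in growth media, and 2.30 and 2.18 in differentiation media. At 24 h it was well above background on 2 arrays of each group, and the call was lost without nontargeting replicate 2 (0.66, adjusted p = 0.175) or without ZNF148 replicate 2 or 3 (1.18 and 1.24).

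Both transmembrane collagens rose in growth media at 96 h and in differentiation media at 48 h. COL25A1, made by developing muscle and needed for its innervation, read 8.67, 8.58 and 8.96 against 9.07, 9.02 and 9.32 at 24 h, without overlap but with a difference of 0.41 (-0.31 to 1.12). It read 10.77, 8.60 and 8.65 against 12.13, 12.19 and 12.42 at 48 h and 8.39 and 8.76 against 13.12, 12.90 and 13.01 at 96 h in growth media. The rise was 2.90 (2.19 to 3.62, adjusted p = 3.3e-07) at 48 h, 3.62 without nontargeting replicate 1, and 4.43 (3.64 to 5.23, adjusted p = 4.23e-09) at 96 h. In differentiation media it read 9.66, 9.85 and 10.08 against 12.06, 12.04 and 11.96 at 48 h (2.15, adjusted p = 1.2e-05) and 10.42, 10.33 and 10.69 against 12.43, 12.63 and 12.45 at 96 h (2.02, adjusted p = 3.6e-05). Nontargeting replicate 1 at 48 h in growth media was the highest of its group for COL25A1 and for the differentiated-muscle sum, as for COL1A1, COL16A1 and POSTN. With ZNF148 siRNA at 96 h the sum was 20.23 to 20.27 in growth and 20.56 to 20.58 in differentiation media, where COL25A1 was the lower one. A link between the sum and COL25A1 was not tested. COL13A1, found at the neuromuscular junction, had its largest rise at 48 h in differentiation media, at 3.82, 4.63 and 2.85 against 8.86, 9.10 and 9.0. There its change was 5.22 (4.69 to 5.74, adjusted p = 1.47e-13), with 1 of 3 nontargeting arrays well above background. It also rose by 1.93 at 96 h in growth media and had differences of 0.87 and 0.68 at 48 h in growth and 96 h in differentiation media.

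Laminins are the cross-shaped trimers on which basement membranes assemble, nidogens link them to collagen IV, and HSPG2 encodes perlecan, the large heparan sulfate proteoglycan of the same sheet. Of these 9 genes, 1, 4 and 1 rose and 0, 0 and 1 fell at 24, 48 and 96 h in growth media. In differentiation media 2 rose and 1 fell at 48 h, and none rose and 1 fell at 96 h. The counts at 96 h in growth media were near the shares of all genes, 12.3% higher and 12.5% lower. LAMA2, the alpha chain of muscle laminin, stayed under 2-fold throughout, with differences between -0.46 and 0.56. At 96 h it read 12.74 and 12.70 against 12.35, 12.15 and 12.27 in growth media and 11.38, 11.48 and 11.63 against 12.12, 12.06 and 12 in differentiation media. LAMC1, the common gamma chain, read 14.10 and 14.11 against 13.38, 13.40 and 13.42 at 96 h in growth media, without overlap but with a difference of -0.71 (-0.93 to -0.49). LAMB1 fell in 3 comparisons, by -1.13 at 96 h in growth media and by -1.38 and -1.49 at 48 and 96 h in differentiation media, where it read 14.96, 15.10 and 15.09 against 13.54, 13.54 and 13.58 at the later time. LAMB2, the beta chain enriched at the neuromuscular junction, had differences between -0.55 and 0.66.

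LAMA4 was called higher at 48 h in both media, by 1.07 in growth (1.20 without nontargeting replicate 1) and 1.00 in differentiation media, and the call rests on 1 probe and on single arrays. Its 3 other probes gave -0.03 to 0.30 in growth media and -0.91 to -0.46 in differentiation media at 48 h. The call in growth media was lost without nontargeting replicate 2 (0.95), and the one in differentiation media without nontargeting replicate 1 (0.93) or ZNF148 replicate 1 (0.96). LAMA5 rose by 1.23 at 48 h in growth media (1.43 without nontargeting replicate 1) and had differences of -0.60 and -0.69 in differentiation media. NID1 read 10.13, 10.23 and 10.20 against 11.49, 11.53 and 11.39 at 24 h, a rise of 1.29 (1.09 to 1.48, adjusted p = 2.23e-09), and at the later times its differences of 0.65 to 0.98 were under 2-fold. NID2 read 12.08, 11.16 and 11.42 against 13.03, 13.16 and 12.86 at 48 h in growth media, a rise of 1.46 (1.73 without nontargeting replicate 1). It also rose by 1.08 at 96 h in growth media and by 1.15 at 48 h in differentiation media. The value at 96 h in growth media was 1.00, short of the threshold, without nontargeting replicate 2. At 96 h in differentiation media it read 12.52, 12.70 and 12.50 against 12.11, 12.07 and 12.13, a difference of -0.47. HSPG2 rose by 1.11 at 48 h in growth media (1.33 without nontargeting replicate 1, and 0.97, not called, without replicate 2) and had differences of -0.87 to 0.50 elsewhere. Its values come from the brightest of 4 tested probes, and the call was lost in 2 of 19 alternatives, with a lowest value of 0.93.

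The small leucine-rich proteoglycans bind collagen fibrils and growth factors such as TGF-beta, and the 3 measured here took different courses. Decorin, DCN, read 15.75, 15.67 and 15.73 against 15.03, 15.07 and 15.14 at 24 h, a difference of -0.64 (-0.86 to -0.42). It read 15.75, 16.03 and 16.35 against 14.35, 14.55 and 14.35 at 48 h and 17.05 and 16.83 against 14.10, 14.35 and 14.27 at 96 h in growth media. It read 16.83, 16.87 and 16.80 against 14.51, 14.38 and 14.43 at 48 h and 15.76, 15.62 and 15.70 against 13.92, 13.83 and 13.75 at 96 h in differentiation media. No ZNF148 array reached the lowest nontargeting array of its time and media. The falls were -1.63 (-1.85 to -1.4, adjusted p = 6.41e-11), -2.70 (-2.95 to -2.45, adjusted p = 1.45e-13), -2.39 (-2.61 to -2.17, adjusted p = 3.95e-14) and -1.86 (-2.08 to -1.64, adjusted p = 5.44e-12) in that order. Without nontargeting replicate 1 the first was -1.77. A second DCN probe gave -2.38, -2.95, -3.56 and -2.17. Like DCN, the members LUM, COL1A1, COL3A1 and POSTN are often used as fibroblast markers. At 96 h in growth media COL1A1 rose by 2.62 and POSTN by 3.50, while LUM and COL3A1 were not called. The fibroblast marker sum was lower with ZNF148 siRNA in the same comparisons as DCN, with 3 of 6 tested markers called lower in each. A link between DCN and these markers was not tested.

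Lumican, LUM, which spaces collagen fibrils, read 11.19, 11.07 and 11.21 against 11.01, 11.20 and 11.11 at 48 h in growth media, with overlap and a difference of -0.05 (-0.28 to 0.18). In differentiation media at 48 h it read 12.67, 12.41 and 12.29 against 10.99, 11.11 and 11.05, a fall of -1.41 (-1.64 to -1.18, adjusted p = 2.72e-10). At 96 h the difference was -0.64. Biglycan, BGN, was dim, well above background on 16 of 29 arrays and on none at 24 h. It rose by 2.5 at 48 h in growth media and by 2.01 at 96 h. Without nontargeting replicate 1 at 48 h no control was well above background, and BGN was at least 4.77-fold higher there, while at 96 h in differentiation media it was at least 6.30-fold higher, with 6.73, 6.69 and 6.88 on the ZNF148 arrays. Its call at 96 h in growth media was lost without nontargeting replicate 1 (1.38, adjusted p = 0.268) or ZNF148 replicate 2 or 3 (1.98 and 1.97). The groups overlapped at 48 h in differentiation media, at 3.69, 4.20 and 6.78 against 6.35, 6.59 and 6.51. Its call there (1.59, adjusted p = 0.0401) was lost without any 1 of 5 of the 6 arrays, with values of 0.99 to 1.66, and the difference was positive on 2 of 3 slides.

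Fibrillins form the microfibrils onto which elastin is laid. FBN1 read 7.53, 7.97 and 8.16 against 5.73, 5.40 and 5.61 at 48 h in differentiation media and 7.16, 7.46 and 7.08 against 6.13, 5.50 and 5.77 at 96 h. The groups were apart at both times, and the changes were -2.31 (-2.65 to -1.96, adjusted p = 1.02e-10) and -1.43 (-1.78 to -1.08, adjusted p = 2.79e-07). In growth media the FBN1 differences were 0.11, -0.80 and -0.46. FBN2, the fibrillin of developing tissue, read 10.03 and 9.93 against 8.57, 8.56 and 8.62 at 96 h in growth media, a fall of -1.4 (-1.70 to -1.10, adjusted p = 4.95e-08), and had differences of -0.92 to 0.14 elsewhere. Elastin, ELN, rose in 1 comparison, at 96 h in growth media, where it read 5.70 and 6.08 against 8.48, 8.33 and 8.52 and the change was 2.55 (1.88 to 3.23, adjusted p = 1.1e-06). The ELN difference at 48 h in growth media was 0.92, and 1.01 and called without nontargeting replicate 1 or without ZNF148 replicate 1. Its arrays overlapped in differentiation media.

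Of the 6 adhesive and matricellular proteins, 1, 2 and 1 rose and 1, 3 and 2 fell at 24, 48 and 96 h in growth media, and 1 rose and 4 fell at 48 h and 1 rose and 2 fell at 96 h in differentiation media. Thrombospondin-2, THBS2, a secreted matrix protein that binds matrix proteases and the receptor CD36, fell in all 5. It read 8.61, 8.65 and 8.51 against 7.23, 7.45 and 7.24 at 24 h, 9.21, 9.65 and 9.95 against 8.13, 8.19 and 8.11 at 48 h, and 10.97 and 10.84 against 8.67, 9.06 and 8.87 at 96 h in growth media. In differentiation media it read 11.23, 11.30 and 11.23 against 6.32, 6.66 and 6.71 at 48 h and 10.98, 11.10 and 10.95 against 7.52, 6.98 and 7.80 at 96 h. The groups never overlapped. The changes were -1.28 (-1.64 to -0.92, adjusted p = 8.03e-06), -1.46 (-1.81 to -1.10, adjusted p = 3.39e-07) and -2.04 (-2.44 to -1.64, adjusted p = 1.55e-08) in growth media, the second being -1.65 without nontargeting replicate 1. In differentiation media they were -4.69 (-5.04 to -4.33, adjusted p = 2.07e-15) and -3.58 (-3.93 to -3.22, adjusted p = 3.84e-13), that is 25.8-fold and 11.9-fold lower. A second, dimmer THBS2 probe gave -0.73, -0.78 and -1.34 in growth and -3.92 and -1.59 in differentiation media. THBS1, the related thrombospondin, read 13.46, 13.34 and 13.39 against 12.33, 12.35 and 12.37 at 48 h in differentiation media, a fall of -1.05 (-1.18 to -0.91, adjusted p = 6.59e-12) that was -0.77 with 75th percentile scaling, and its other differences were under 2-fold.

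Fibronectin, FN1, the adhesive glycoprotein that integrins bind, read 10.85, 10.80 and 10.89 against 10.34, 10.23 and 10.67 at 24 h, a difference of -0.43. It read 11.54, 11.85 and 11.85 against 10.65, 10.77 and 10.77 at 48 h and 11.63 and 11.89 against 10.56, 10.54 and 10.51 at 96 h in growth media. It read 11.52, 11.23 and 11.21 against 9.83, 9.64 and 9.72 at 48 h and 10.41, 10.40 and 10.78 against 8.89, 9.20 and 9.0 at 96 h in differentiation media. The ZNF148 arrays were the lower ones each time. The falls were -1.02 (-1.28 to -0.75), -1.23 (-1.52 to -0.93), -1.59 (-1.85 to -1.33) and -1.5 (-1.77 to -1.24), with adjusted p of 6.76e-07, 2.71e-07, 4.21e-10 and 1.96e-09. The first of these was -1.12 without nontargeting replicate 1 and slipped to -0.96, -0.97 and -0.98, just under 2-fold, without nontargeting replicate 2, nontargeting replicate 3 or ZNF148 replicate 1.

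Periostin, POSTN, a matricellular protein of injured and remodelling muscle, read 10.91, 10.79 and 10.79 against 10.67, 10.64 and 10.59 at 24 h, a difference of -0.20 (-0.69 to 0.30). Later in growth media it read 10.95, 9.38 and 9.54 against 12.26, 12.26 and 12.14 at 48 h, and 10.10 and 10.01 against 13.38, 13.66 and 13.62 at 96 h. The rise was 2.26 (1.77 to 2.76, adjusted p = 7.13e-08), or 2.76 without nontargeting replicate 1, and 3.50 (2.94 to 4.05, adjusted p = 6.74e-10). POSTN rose in differentiation media by 1.88 at 48 h, from 9.44, 9.25 and 9.12 to 11.24, 11.05 and 11.17. At 96 h it read 12.78, 12.82 and 12.74 against 12.40, 12.25 and 12.57, a difference of -0.37 (-0.87 to 0.12).

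Tenascin-C, TNC, an anti-adhesive glycoprotein of regenerating muscle and tendon, fell at 48 h and rose at 96 h in differentiation media. At 48 h it read 9.94, 10.35 and 10.40 against 8.11, 8.07 and 7.85 in growth media and 8.99, 10.13 and 10.50 against 7.51, 7.23 and 7.5 in differentiation media. These were changes of -2.22 (-2.69 to -1.75, adjusted p = 4.53e-08, or -2.36 without nontargeting replicate 1) and -2.46 (-2.93 to -1.99, adjusted p = 4.24e-09). The order was turned at 96 h in differentiation media, with 7.80, 7.84 and 7.71 against 9.76, 9.84 and 9.90, a rise of 2.05 (1.58 to 2.52, adjusted p = 1.15e-07). At 96 h in growth media it read 10.23 and 10.21 against 9.43, 9.63 and 9.61, a difference of -0.67. SPARC, the collagen-binding protein osteonectin, read 15.24, 15.16 and 15.13 against 16.24, 16.23 and 16.17 at 24 h, a rise of 1.04 (0.79 to 1.29, adjusted p = 1.17e-06). It rose by 1.16 at 48 h in growth media (1.37 without nontargeting replicate 1), and its later differences were 0.39, 0.55 and -0.29.

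The difference between the effects of ZNF148 siRNA at 24 and 96 h in growth media was tested as an interaction. It was called for 17 of 45 members, 13 with a higher and 4 with a lower effect at 96 h, against 11.6% and 11.3% of all genes. The fibril-associated and transmembrane collagens COL16A1 (difference of effects 4.64), COL25A1 (4.03), COL14A1 (at least 2.45) and COL13A1 (1.74), the basement membrane collagens COL15A1 (at least 2.75), COL4A1 (1.55), COL4A6 (1.41) and COL4A2 (1.17), the collagen VI chain COL6A3, and POSTN (3.70), ELN (1.85), COL5A1 (1.59) and LAMA4 (1.09) had the higher effect at 96 h. DCN (-2.06), FBN2 (-1.54), COL3A1 (-1.18) and LAMB1 (-1.16) had the lower one. COL15A1 was not well above background on any nontargeting array at 96 h, nor COL14A1 on any ZNF148 array at 24 h, so their differences are bounds with the dim group held as for the bounds above. COL6A3 was not well above background on any of the 6 arrays at 24 h, so no size is given for it. By adjusted p alone the effect was higher for 18 and lower for 11 members, against 22.2% and 25.1% of all genes. COL1A1 was not called, at 0.32 (-0.63 to 1.27), and its rise was 2.30 and 2.62 at these times. Cells at 24 h were also less dense by the labels, and density, slide and time cannot be told apart here.

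The effect of the media was read under each siRNA in turn. With nontargeting siRNA, 6 members were higher and 5 lower in differentiation than in growth media at 48 h, against 7.77% and 8.23% of all genes, and 12 were higher and 4 lower at 96 h, against 6.8% and 8.26%. Without nontargeting replicate 1 the counts at 48 h were 10 and 4. The nontargeting arrays of the 2 media at 96 h shared no slide, so media and slide cannot be told apart in that comparison. Time since transfection may also differ between the media. The 12 genes higher at 96 h were COL5A3 (3.05), COL16A1 (3.54), POSTN (2.72), COL14A1 (2.71), COL25A1 (1.91), COL1A1 (1.67), COL18A1 (1.53), NID2 (1.17), LAMA5 (1.15), HSPG2 (1.14), COL3A1 (1.07) and COL5A1 (1.01), and DCN (-1.25), FN1 (-1.23), LAMA2 (-1.22) and TNC (-2.44) were lower. With ZNF148 siRNA, 1 member was higher and 13 lower in differentiation media at 48 h, against 1.13% and 2.85% of all genes, and none was higher and 11 were lower at 96 h, against 1.44% and 4.93%. At 96 h the lower members included ELN (-2.49), THBS2 (-1.43), COL7A1 (-1.38), COL6A1 (-1.18), COL6A2 (-1.15) and POSTN (-1.15). By adjusted p alone, 12 were higher and 14 lower at 48 h (25.4% and 24.5% of all genes) and 19 and 12 at 96 h (21.5% and 22.3%) with nontargeting siRNA. With ZNF148 siRNA these counts were 2 and 25 at 48 h (7.5% and 11.5%) and 0 and 26 at 96 h (10.2% and 18.3%). These 4 comparisons share arrays with those of the siRNAs, so each is given with its own values only. The groups of the 2 media did not overlap for 24 and 36 of the 45 members with nontargeting siRNA at 48 and 96 h and for 40 and 41 with ZNF148 siRNA, against 52.2%, 66.6%, 41.3% and 49% of all genes.

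**Figure D5:**
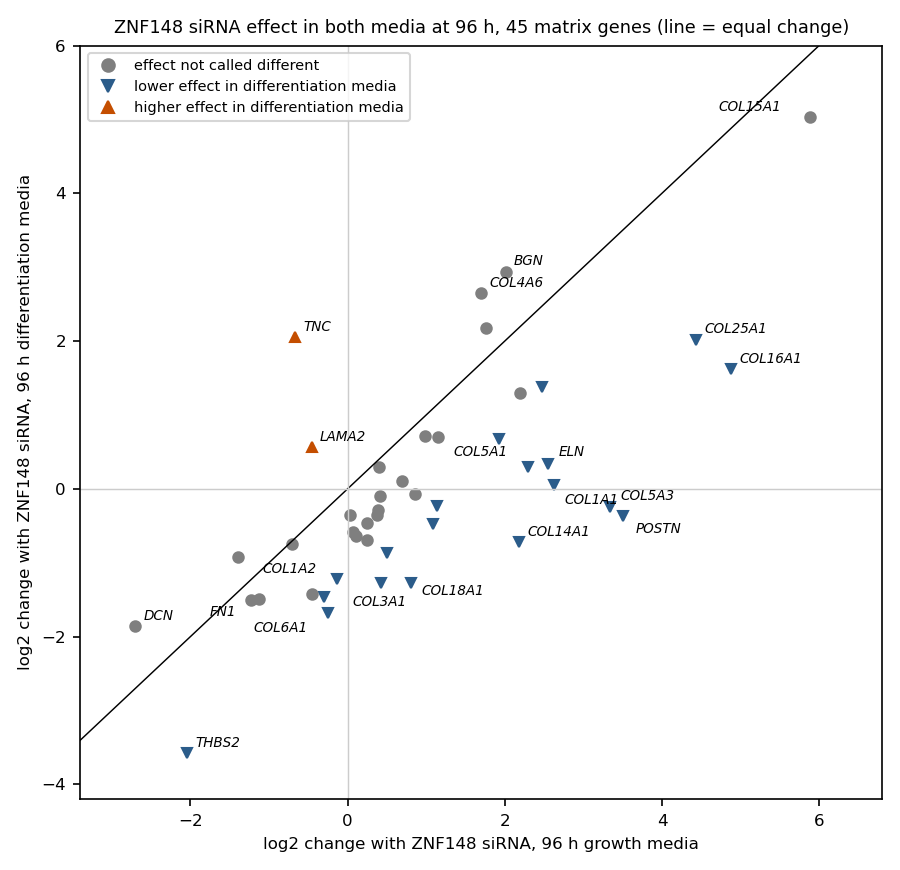
Log2 change with ZNF148 siRNA at 96 h in growth media (horizontal axis) and in differentiation media (vertical axis) for the 45 tested genes, with the diagonal of equal change. Blue triangles mark the 19 genes whose effect was called lower in differentiation media, orange triangles the 2 called higher (TNC and LAMA2), and grey points the genes not called different. The axes share no arrays, and the side of the diagonal on which a marked gene lies follows from its marking.

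The effect of ZNF148 siRNA also differed between media when the difference itself was tested. At 48 h it was called for 16 members, 2 with a higher and 14 with a lower effect in differentiation media, against 8.13% and 9.08% of all genes, and for 20 (2 and 18) without nontargeting replicate 1. At 96 h it was called for 21, 2 higher and 19 lower, against 5.56% and 6.93% of all genes. The test at 96 h includes the nontargeting arrays of both media, which shared no slide. By adjusted p alone, 4 were higher and 22 lower at 48 h (20.6% and 21.7% of all genes) and 4 and 31 at 96 h (14.4% and 17.3%). The median difference over the 45 members was -0.66 at 48 h and -0.89 at 96 h, where all genes had 0 and -0.04. At 48 h the lower effects were led by COL14A1 (-4.06, from -4.67 to -3.44) and THBS2 (-3.23, from -3.74 to -2.73), and the higher ones were COL13A1 (4.35) and COL4A6 (at least 2.53, its nontargeting arrays in differentiation media being not well above background). At 96 h they were led by POSTN (-3.87, from -4.61 to -3.13), COL5A3 (-3.59), COL16A1 (-3.26), COL14A1 (-2.90), COL1A1 (-2.57, from -3.52 to -1.62) and COL25A1 (-2.41), and TNC had the opposite sign (2.72, from 2.02 to 3.42). POSTN was at 10.06 in growth and 12.78 in differentiation media with nontargeting siRNA at 96 h, and at 13.55 and 12.41 with ZNF148 siRNA, so its 2 levels in differentiation media were close. COL1A1 was at 14.19 and 15.86 with nontargeting and at 16.81 and 15.91 with ZNF148 siRNA. COL6A1 (-1.44), COL6A2 (-1.16) and COL1A2 (-1.08) were also among the 19 with a lower effect in differentiation media, while their differences in growth media had been -0.30 to -0.13.

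By gene, 12 members rose in both media at 48 h and 8 at 96 h. The 8 were COL4A1, COL4A6, COL15A1, COL6A3, COL16A1, COL21A1, COL25A1 and BGN. The 10 that were called higher in growth media alone at 96 h were COL1A1, COL5A1, COL5A3, COL4A2, COL7A1, COL14A1, COL13A1, NID2, ELN and POSTN. In the test between media, all of these 10 but COL4A2 were called. That test uses the same arrays and fit by which the 10 were picked, so it is no separate support. The members that fell in both media at 48 h were COL8A1, DCN, FN1, TNC and THBS2, and LAMB1, DCN, FN1 and THBS2 did so at 96 h.

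Genes around the matrix proteins were read from 4 further lists, by counts with no set test. Of all tested genes, 2.47%, 11.7% and 12.3% rose at 24, 48 and 96 h in growth media, and 3.08%, 12.2% and 12.5% fell. In differentiation media 15.1% and 10.5% rose and 17.3% and 12.8% fell at 48 and 96 h. The counts of all 4 lists stand beside these shares, and some were near them. Of 28 tested genes that process and cross-link collagen (prolyl and lysyl hydroxylases, lysyl oxidases, collagen proteases), 2 rose and none fell at 24 h, 3 rose and 7 fell at 48 h and 4 rose and 7 fell at 96 h in growth media, and 4 rose and 9 fell at 48 h and 2 rose and 4 fell at 96 h in differentiation media. ADAMTS14, which removes the N-terminal propeptide of procollagen, rose by 3.98 and 2.86 at 48 and 96 h in growth media, and LOXL4, a lysyl oxidase, by 3.20 and 2.32 in differentiation media. LOX, the founding lysyl oxidase, changed by -2.96 at 48 h and LOXL1 by -2.10 at 96 h in growth media, and COLGALT2, a collagen galactosyltransferase, changed by -3.09 and -2.84 in differentiation media. P3H2, a prolyl 3-hydroxylase, was the largest rise of the list at 24 h, at 1.57.

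Of 24 tested matrix receptors, 2, 8 and 7 rose and 1, 7 and 7 fell at 24, 48 and 96 h in growth media, and 6 and 5 rose and 9 and 7 fell at 48 and 96 h in differentiation media. ITGA6, a laminin-binding integrin chain, rose by 3.08 at 96 h in growth media and 4.41 at 48 h in differentiation media, and ITGB4, its hemidesmosome partner, changed by -4.22 at the latter. BCAM, a receptor for laminin alpha-5, rose by 3.47 at 48 h in growth media. SDC1, a heparan sulfate proteoglycan of the cell surface, changed by -3.57 and -3.73 at 48 and 96 h in growth media and by -3.42 at 96 h in differentiation media. ITGA4 rose by 2.18 at 96 h in differentiation media, and at 24 h ITGB8 rose by 1.4 and CD44, the hyaluronan receptor, changed by -1.05.

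Of 24 genes of the TGF-beta pathway, which drives matrix synthesis in many cells, 2, 4 and 7 rose and 2, 6 and 7 fell in growth media, and 6 and 7 rose and 7 and 8 fell in differentiation media. The ligand TGFB2 rose by 2.41 and 3.43 at 48 and 96 h in growth media. Its type II receptor gene TGFBR2 changed by -2.99 at 24 h and -3.19 at 96 h, and TGFBR3, a co-receptor, was at least 6.33-fold lower at 96 h in differentiation media. Among targets and regulators, LTBP1, which tethers latent TGF-beta to the matrix, changed by -3.21 at 48 h in differentiation media, and CCN2 rose by 2.43 and 3.42 in differentiation media. BAMBI, a decoy receptor, rose by 1.32 at 24 h.

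Of 38 tested matrix genes that are not members, 1, 8 and 8 rose and 1, 7 and 6 fell at 24, 48 and 96 h in growth media, and 4 and 5 rose and 12 and 9 fell in differentiation media. SPARCL1, a relative of SPARC, was at least 16.7-fold higher at 96 h in growth media. EMILIN2, an elastin microfibril interface protein, rose by 4.44 at 48 h in growth and 5.74 at 48 h in differentiation media, with 1 of 3 nontargeting arrays well above background in each. LAMA3, a laminin alpha chain of epithelia, changed by -3.87 and -3.09 at 48 and 96 h in growth media and by -5.09 at 48 h in differentiation media. SPOCK1, a testican, changed by -3.29 at 96 h in differentiation media. MFAP4, a microfibril-associated protein, rose by 1.10 at 24 h, and COL23A1, a transmembrane collagen, was called lower there with 1 of 3 nontargeting and no ZNF148 array well above background. The median changes of the 4 lists lay between -0.58 and 0.49 over the 5 comparisons, and those of all genes between -0.06 and 0.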

How the data were processed

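Total RNA of each culture was labelled with Cy3 and hybridised to 1-colour Agilent arrays with 62976 spots, of which 2075 were control spots. The intensities deposited by the authors are linear signals per spot, already background-subtracted by Agilent Feature Extraction 10.7.3.1 and not scaled between arrays. The authors also deposited a matrix of quantile-normalized log2 values, used here to choose 1 probe per gene and as an alternative. Each of its 29 columns matched its own array best (lowest correlation across probes 0.9951).

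Spots that were controls or outliers were dropped, spots of 1 probe were averaged, and signals were quantile-normalized over all 29 arrays after the study's methods. Of 58201 probes, 38839 were well above background on at least 2 arrays and were tested, and no member's probe had a missing value. Gene names came from the RefSeq accession of 31104 probes. In limma 3.58.1 (R 4.3.3) a model with 1 mean per group was fitted to all 29 arrays, with two-sided moderated tests and Benjamini-Hochberg adjustment over all tested probes. A call needed an adjusted p under 0.05 and a change over 2-fold. Interactions used the same fit. Figures and sequence counts were made in Python 3.11.15 with matplotlib 3.10.9.

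Groups were taken from the sample labels. Values of every array are given for the 4 largest rises and falls per siRNA comparison among members well above background on all arrays of both groups and not overlapping, and for a list of examples of each role. Of other genes, the largest rise and fall of each list are named, except for 1 result that is not reported here. Members, lists and tests were chosen with earlier results of these data known, and the fit of 28 arrays, the unadjusted t-test and the differences within slides after seeing the data. Alternatives were 75th percentile scaling, normexp background correction, the authors' values, no filter, no fold threshold, the arrays of a comparison alone, array weights, slide or replicate number as a block, the methods' t-test, the mean of all probes, and leaving out each array. Tested on simulated data, with 200 of 38157 probes changed by 1.5 on the log2 scale, the fit recovered 63.5% to 73.5% of them, with 2 to 8 false calls, in the 5 siRNA comparisons. The other simulated probes had no group difference, and noise was drawn independently for each array. In the real comparisons many more probes were called and 1 control array stood apart. These figures therefore do not give the error rate of the reported calls.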

Additional observations from a re-analysis of the deposited data

Results flagged for a closer look

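The effect of ZNF148 siRNA differed between times or media, by an interaction test in limma, for the members below. Values are differences between 2 effects on the log2 scale, and the effects compared share no arrays with each other.

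Some fitted values rest on a group in which no array was well above background. For these COL15A1 was at least 2.75 and COL14A1 at least 2.45 higher at 96 than at 24 h, COL4A6 was at least 2.53 higher in differentiation media at 48 h, and COL6A3 between 24 and 96 h has no interpretable size, since all 6 of its arrays at 24 h were at background.

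Between 24 and 96 h in growth media, the effect was higher at 96 h for COL15A1 (fitted 4.41), COL4A1 (1.55), COL4A6 (1.41) and COL4A2 (1.17) among the basement membrane collagens, for COL16A1 (4.64), COL25A1 (4.03), COL14A1 (fitted 2.83), COL6A3 (fitted 2.07), COL13A1 (1.74) and COL5A1 (1.59) among the other collagens, and for POSTN (3.70), ELN (1.85) and LAMA4 (1.09). It was lower for DCN (-2.06), FBN2 (-1.54), COL3A1 (-1.18) and LAMB1 (-1.16).

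Between the media at 48 h, the effect was higher in differentiation media for COL13A1 (4.35) and COL4A6 (fitted 2.86). It was lower for COL14A1 (-4.06), COL7A1 (-1.64), COL5A1 (-1.61), COL18A1 (-1.51), COL6A2 (-1.35), COL6A1 (-1.12), COL1A2 (-1.11) and COL12A1 (-1.07) among the collagens. It was also lower for THBS2 (-3.23), LAMA5 (-1.83), FBN1 (-1.5), LUM (-1.36), LAMB2 (-1.04) and HSPG2 (-1.02).

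Between the media at 96 h, the effect was higher in differentiation media for TNC (2.72) and LAMA2 (1.02). It was lower for the fibrillar chains COL5A3 (-3.59), COL1A1 (-2.57), COL5A1 (-1.99), COL3A1 (-1.71) and COL1A2 (-1.08), and for the network collagens COL18A1 (-2.08), COL7A1 (-1.37) and COL4A1 (-1.09). The other collagens with a lower effect were COL16A1 (-3.26), COL14A1 (-2.90), COL25A1 (-2.41), COL6A1 (-1.44), COL13A1 (-1.25) and COL6A2 (-1.16). POSTN (-3.87), ELN (-2.22), NID2 (-1.55), THBS2 (-1.53) and HSPG2 (-1.37) completed the list. No group had the 4 arrays that a test for a single outlying array needs.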

How the results depend on the processing

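Among the 104 called changes with ZNF148 siRNA, 1 changed direction under an alternative, that of LAMA4 at 48 h in differentiation media, which was -0.27 (adjusted p = 0.0309 in limma) as the mean of all its probes. Calls were lost for 21 changes with normexp background correction, 7 with the methods' t-test after Benjamini-Hochberg adjustment (COL21A1 at 24 h, COL1A1, COL5A3, COL15A1 and COL16A1 at 48 h in growth media, BGN at 96 h in growth and 48 h in differentiation media), 3 with 75th percentile scaling, 3 with the mean of all probes, 2 each with the arrays of the comparison alone and with array weights, and 1 each with the authors' values and with no filter. With normexp, 4 members were called at 24 h. The 75th percentile moved the median of all genes by at most 0.11, from -0.05 to 0.06 at 48 h in differentiation media. For 14 members, 18 other probes were tested. At 48 h in growth media 10 of them gave the same call as the chosen probe, 6 lost it and 1 gave the opposite call. In the remaining siRNA comparisons 14 to 17 gave the same call and none the opposite.

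With no fold threshold, 21, 42 and 37 members were called in growth media by hour and 39 and 35 in differentiation media at 48 and 96 h, in the directions and beside the shares of all genes given above. The media comparisons then called 26 and 31 with nontargeting and 27 and 26 with ZNF148 siRNA at 48 and 96 h, and the interactions 29 (96 against 24 h), 26 and 35 (between media at 48 and 96 h).

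Leaving out 1 array at a time gave 6 to 8, 20 to 25 and 22 to 24 called members in growth media and 29 to 31 and 18 to 19 in differentiation media. For the media comparisons it gave 9 to 14 and 16 to 17 with nontargeting and 10 to 13 and 11 to 12 with ZNF148 siRNA, and for the interactions 16 to 18, 14 to 20 and 19 to 23.

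Same-numbered arrays of the 2 siRNAs did not deviate together (correlations of -0.146 to 0.124), so the numbers were not taken as pairs. With the replicate number as a block the counts were 8, 23 and 23 in growth and 31 and 19 in differentiation media, and no called change was lost. The slide as a block lost none either. Dim members (COL6A3, BGN, COL15A1, COL21A1, COL8A2) were well above background on 15 to 23 arrays, which limits their values.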
